A study of Ovis aries with 32 samples.

Results

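Untreated middle cerebral artery (MCA) of the near-term sheep fetus was compared with that of the premature fetus across the genes of a sheep microarray. The samples were chosen by age and treatment alone: 4 near-term and 4 premature untreated arrays, 8 of the 32 arrays of the series. The other 24 arrays hold the same 2 ages exposed to phenylephrine (PHE, an alpha1-adrenergic agonist), and newborn lambs and adult sheep without and with PHE. The labels name no genetic change in any animal. The labels put the premature fetus at 96 days of gestation and the near-term fetus at 146 days, where the design text gives 140 days for the latter. For the other ages the labels give 12 hours for the newborn lamb (5 days in the design text) and 2 years for the adult. Each group came from 4 animals, and where a ewe carried twins 1 of them was used, but the labels do not tie an array to an animal. Segments were cleaned of fat and connective tissue and kept in oxygenated Krebs buffer, and those of the PHE groups received 10 µM PHE for 30 minutes. The question addressed is which genes of the artery differ between these ages before any agonist is given.

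The wall of a cerebral artery is made mainly of smooth muscle around a single layer of endothelium, with fibroblasts and nerve endings outside it. During gestation its smooth muscle shifts from dividing and laying down matrix towards contracting, and gains the proteins of the contractile apparatus. Late gestation in the sheep is also the time when fetal plasma cortisol rises ahead of birth, and cortisol acts through the glucocorticoid receptor on many tissues.

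RNA was labelled with a single dye. A level in what follows is the log2 ratio of a probe's processed intensity to the 75th percentile of the same array, so that 0 stands for the intensity at that percentile, and a difference is the near-term mean minus the premature mean of these levels. The array holds 15008 probes, which were reduced to 14272 genes or unnamed probes by taking the brightest probe of each gene. Genes were tested only if the 4 arrays of at least 1 group all had the probe well above background, which left 9535, of which 1812 carry a gene symbol. A gene is called altered at a limma adjusted p under 0.05 together with at least a 1.5-fold difference. Of the 9535, 7365 were well above background on all 8 arrays, 69 on all near-term and no premature array, and 86 on all premature and no near-term array.

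The near-term arrays were less alike than the premature ones. The 75th percentile stood at 7.05, 15.6, 4.37 and 1.43 times the background on near-term arrays 1 to 4, and at 8.53 to 12.1 times on the premature arrays. Correlations between arrays over 9504 of the tested genes were 0.979 to 0.99 among premature arrays, 0.935 to 0.962 among near-term arrays 1 to 3, and 0.871 to 0.9 between near-term array 4, the dimmest, and the other near-term arrays. The median standard deviation of a gene was 0.53 over the near-term arrays (0.41 over near-term arrays 1 to 3) and 0.19 over the premature arrays. The near-term arrays were scanned with the adult arrays and the premature arrays with the newborn arrays on a different day, and the effects of age and of scan day cannot be told apart in this comparison. The 4 premature arrays shared 1 slide with the premature PHE arrays, and the near-term arrays were spread over 3 slides that hold no premature array. Of 10 markers of smooth muscle, 2 are named on the array, CNN1 and MYLK, and both were well above background on all 8 arrays.

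Of the 9535 genes and unnamed probes tested, 3247 (34.1%) were altered between the near-term and the premature fetus, 1709 (17.9%) higher and 1538 (16.1%) lower in the near-term fetus. Among the 1812 genes with a symbol, 640 (35.3%) were altered, 392 (21.6%) higher and 248 (13.7%) lower. The median difference was -0.00034 over everything tested and 0.15 over the genes with a symbol. In 2973 of the 3247 the arrays of the groups did not overlap, where 3641 of all tested (38.2%) did not overlap, 19.9% with the near-term and 18.3% with the premature arrays higher. Differences of at least 4-fold were found for 289 higher and 406 lower genes, and of at least 8-fold for 90 and 87. Without the dim near-term array 4, 4062 of 9568 (42.5%) were altered, 2051 (21.4%) higher and 2011 (21%) lower, of which 3079 were the same genes altered in the same direction and 0 in the opposite one. With slide as a random block, which takes arrays of a slide as alike (correlation 0.47), 420 genes remained, 202 higher and 218 lower, all among the 3247, and with normexp background correction, which models the background of each array anew, 410 were altered, 400 of them the same genes. Leaving out premature array 2, 3 or 4 gave 1992, 2000 and 2099 altered genes.

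**Figure D1:**
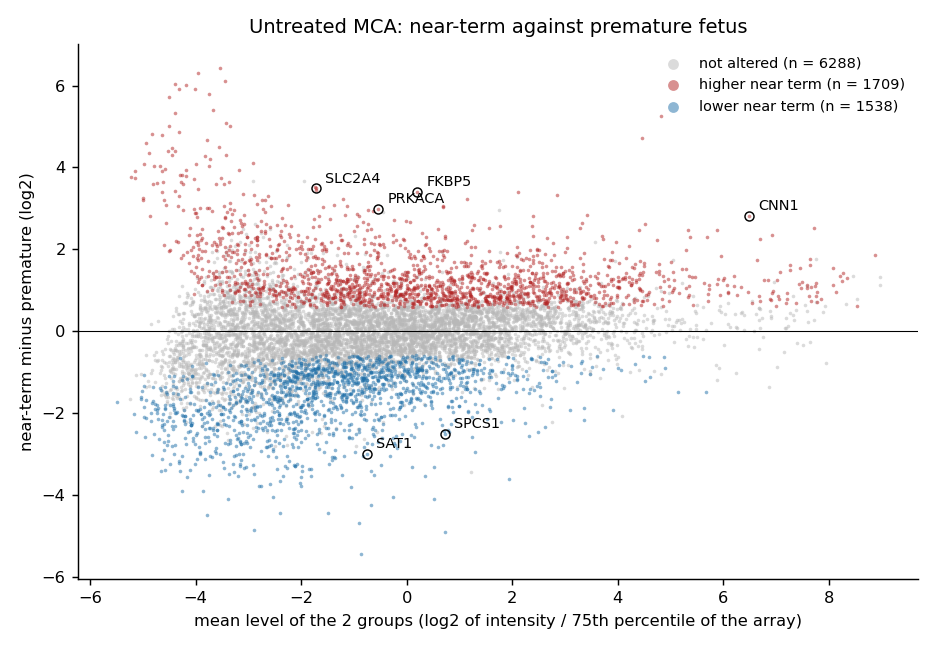
Difference between near-term and premature fetus (vertical axis, log2) against the mean level of both groups (horizontal axis, log2 of intensity over the 75th percentile of the array) for the 9535 genes and unnamed probes tested, each a point. Red points are the 1709 higher and blue points the 1538 lower genes in the near-term fetus, grey points were not altered, and circled genes are named in the text; differences above 4 lie mostly at low levels on the left.

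The 10 largest rises among named genes well above background on all 8 arrays were those of SLC2A4, FKBP5, PRKACA, SPHK1, CNN1, CEBPB, NPY, ZNF768, SP110 and DCXR. SLC2A4, the insulin-regulated glucose transporter GLUT4, stood at -3.20, -4.28, -3.23 and -3.15 on premature arrays 1 to 4 and at -1.19, -0.15, -0.16 and 1.6 on near-term arrays 1 to 4. FKBP5, a co-chaperone that holds the glucocorticoid receptor in check and is itself induced by glucocorticoids, stood at -1.12, -1.83, -1.51 and -1.55 on the premature and at 2.01, 2.03, 2.26 and 1.31 on the near-term arrays. Every near-term array was above every premature array for both genes. The difference was 3.49 ± 0.55 (SE, n = 4 per group) for SLC2A4, or 11.3-fold (limma adjusted p = 0.00285), and 3.41 ± 0.26 for FKBP5, or 10.6-fold (limma adjusted p = 0.000316). PRKACA, a catalytic subunit of protein kinase A, stood at -1.95, -2.23, -2.18 and -1.79 on the premature and at 0.84, 0.55, 0.81 and 1.62 on the near-term arrays, a difference of 2.99 ± 0.26 (limma adjusted p = 0.000415). SPHK1, the kinase that makes sphingosine 1-phosphate, rose 7.82-fold, from -2.22 ± 0.15 to 0.75 ± 0.56 (SD, n = 4; limma adjusted p = 0.000576). CNN1 encodes calponin, an actin-binding protein of differentiated smooth muscle and is a standard marker of that cell. Its levels were 5.22, 4.99, 4.90 and 5.20 on the premature and 8.22, 7.06, 8.66 and 7.68 on the near-term arrays, a rise of 2.83 ± 0.33 or 7.09-fold (limma adjusted p = 0.000986). CEBPB, a leucine zipper transcription factor, had near-term arrays that lay close together, at 0.66, 0.59, 0.50 and 0.24 against -1.91, -2.03, -2.36 and -2.39 on the premature arrays and a difference of 2.67 ± 0.19 (limma adjusted p = 0.000316).

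Further rises were in NPY, ZNF768, SP110 and DCXR. NPY encodes the sympathetic co-transmitter neuropeptide Y, and its level rose from -4.16, -4.00, -4.14 and -3.64 on the premature to -2.44, -1.93, -1.69 and 0.60 on the near-term arrays, with array 4 far above the other near-term arrays. The NPY difference was 2.62 ± 0.59 with all arrays and 1.97 without near-term array 4 (limma adjusted p = 0.0108 and 0.00103). ZNF768, a zinc finger protein, rose 5.91-fold, SP110, an interferon-inducible protein of nuclear bodies, 5.61-fold, and DCXR, a reductase of dicarbonyls and xylulose, 5.54-fold. With slide as a random block SLC2A4, FKBP5, PRKACA, SPHK1, CNN1 and CEBPB kept their calls (adjusted p between 0.0131 and 0.0458), while NPY, ZNF768, SP110 and DCXR lost theirs (adjusted p = 0.0849, 0.0604, 0.0832 and 0.0632). With normexp background correction SLC2A4, NPY, ZNF768 and SP110 were no longer called.

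Of the 10 largest falls 8 are given here, those of SAT1, PLK2, LOX, HBB, HSPA8, SPCS1, BMP6 and GALNT7. SAT1, which starts the breakdown of polyamines, stood at 0.80, 1.04, 0.11 and 1.01 on the premature and at -1.92, -2.13, -3.16 and -1.79 on the near-term arrays. The fall was 7.93-fold, a difference of -2.99 ± 0.35 (limma adjusted p = 0.000986). SPCS1, a subunit of the signal peptidase that trims secreted proteins, fell from 1.79, 1.93, 2.15 and 2.00 to -0.07, -0.76, -0.36 and -0.95, a difference of -2.50 ± 0.23 (limma adjusted p = 0.000538). HSPA8, the constitutive member of the heat shock 70 family, stood at 2.45, 2.62, 2.69 and 2.37 on the premature and 0.38, 0.61, -0.53 and -0.68 on the near-term arrays, a difference of -2.59 ± 0.31 (limma adjusted p = 0.00112). In all of these the groups were apart by more than the whole spread of either.

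PLK2, a stress-responsive polo-like kinase, fell 7.69-fold, and GALNT7, an enzyme of mucin-type O-glycosylation, 5.13-fold. BMP6, a ligand of the bone morphogenetic protein family, fell from 0.33 ± 0.46 to -2.13 ± 0.42 (SD, n = 4), and a further probe of it fell by 2.51. LOX cross-links collagen and elastin, and its near-term arrays split widely, at -3.63, -0.70, -3.65 and -0.90 against 0.21, 0.87, 0.78 and 0.56 on the premature arrays. HBB, a beta globin of red cells, stood at 1.98, 1.33, 2.46 and 2.50 on the premature and at -1.05, -1.36, -0.83 and 0.40 on the near-term arrays, but a dimmer HBB probe was higher by 0.24. With slide as a random block SAT1, HSPA8, SPCS1, BMP6 and GALNT7 kept their calls (adjusted p between 0.0158 and 0.0338), and PLK2, LOX and HBB did not (adjusted p = 0.0704, 0.176 and 0.0531). With normexp background correction SAT1, PLK2, BMP6 and GALNT7 were no longer called. The 9 named genes that kept their call under each of the 25 settings tried were FKBP5, PRKACA, SPHK1, CNN1, CEBPB, ACTN1 and PTGDS among those higher, and HSPA8 and SPCS1 among those lower in the near-term fetus.

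**Figure D2:**
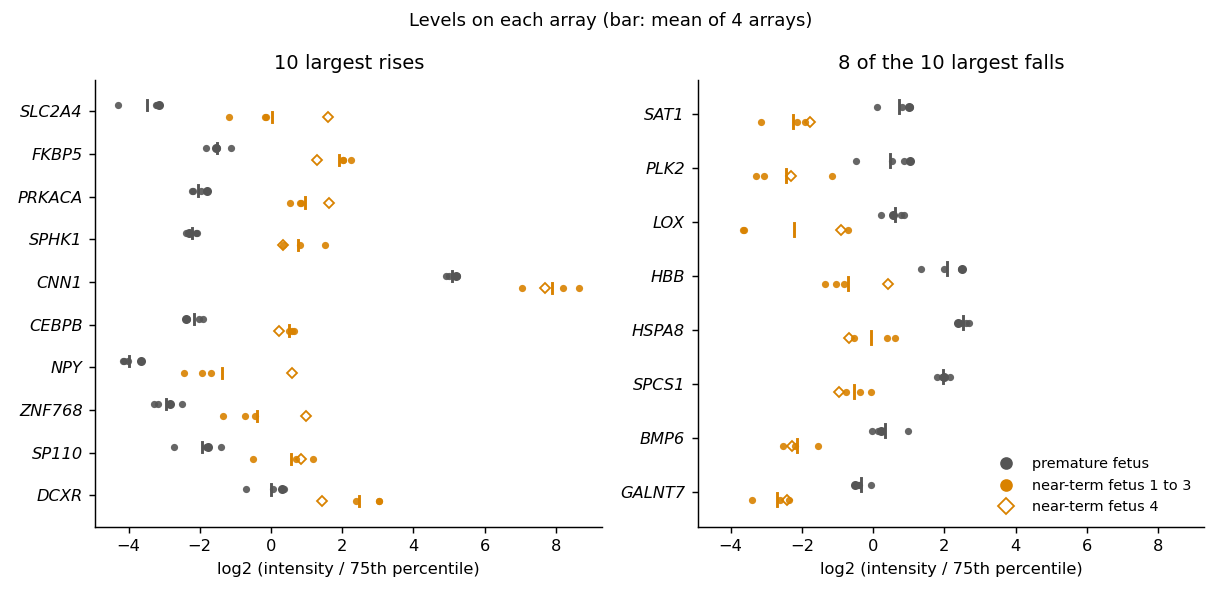
Levels (log2 of intensity over the 75th percentile, horizontal axis) of the genes with the 10 largest rises (left) and of 8 of the 10 largest falls (right) on each array; grey points are the 4 premature arrays, orange points near-term arrays 1 to 3, open diamonds the dim near-term array 4, and bars the mean of 4 arrays. For every gene shown the near-term and the premature arrays do not overlap, and near-term array 4 is the highest near-term array for SLC2A4, PRKACA, NPY, ZNF768, SAT1 and HBB.

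Genes were then grouped into 19 pathway lists and 8 lists of cell markers, whose counts read against the 21.6% higher, the 13.7% lower and the median of 0.15 of all genes with a symbol. Of the 146 genes altered over all 27 lists, 15 remained with slide as a random block and 27 with normexp, and those named below that kept their call with slide are pointed out. For the 73 named genes that lost it the adjusted p with slide ran from 0.0513 to 0.297. Some genes named below were well above background on only some arrays of the dimmer group: on 3 near-term arrays THBS1, IGF2R, EDN1, CXCR4, PDIA3 and PARP9, on 2 NOS1, HSPA13, EBI3, INSIG1 and CD247, and on 1 IRF8 and TIE1. On the premature side INSR, MT1A, PPARA and KLF9 were on 3 arrays, UCN and GPD1 on 2, and FABP4 on 1. These genes entered the test only through the group where they are high, so that the filter favoured their difference, and their p-values and calls are to be read with that. The medians of the insulin-like growth factor, adrenergic, angiogenesis, immediate early, lipid, TGF-beta and leukocyte marker lists changed sign when 1 or another array was left out.

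In the list for smooth muscle contraction, which also holds cytoskeletal genes such as VIM, more genes were higher than lower. Of 13 genes of the list tested, 5 (CNN1, ACTN1, VIM, MYL6 and MYLK) were higher and 2 (CALD1 and PPP1CB) lower in the near-term fetus, with a median difference of 0.73, which was 0.21 without near-term array 4 and 0.24 with quantile normalization. ACTN1, alpha-actinin, which anchors actin at dense bodies, stood at 1.41, 1.58, 1.47 and 1.28 on the premature and at 3.40, 3.47, 3.13 and 2.77 on the near-term arrays, a difference of 1.76 ± 0.20 (limma adjusted p = 0.000986). VIM, the intermediate filament vimentin, rose by 0.86 ± 0.17 (limma adjusted p = 0.0066), and MYL6, a myosin light chain, by 1.62 (limma adjusted p = 0.00766). MYLK phosphorylates the regulatory light chain of myosin and so starts contraction. It stood at 4.73, 4.33, 3.95 and 4.84 on the premature and at 5.38, 5.54, 7.52 and 5.50 on the near-term arrays, so that near-term array 3 carried much of its difference of 1.52 ± 0.48 (limma adjusted p = 0.0387), and the call was lost when any 1 of the premature arrays was left out (adjusted p 0.0649 to 0.106). CALD1, caldesmon, was well above background on no near-term array and on all premature arrays, a fall of at least 2.72-fold, but with normexp background correction its difference turned to 0.20. PPP1CB, the catalytic subunit of myosin phosphatase, fell by 1.64 on the log2 scale (limma adjusted p = 0.0367). ACTN1 and CNN1 kept their calls with slide as a random block and with normexp, the others of this list did not with slide, and with quantile normalization VIM and MYLK lost theirs. Without near-term array 2, 5 genes of the list were lower, and without near-term array 1 or any 1 of the premature arrays 1 was.

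Genes of the cell cycle fell or were not altered. Of 22 tested, 0 were higher and 9 lower (TYMS, CKS2, KIAA0101, PCNA, CCNB2, CDCA7, DONSON, CKAP2 and MCM2), and the median was -0.63. Only 17 of them were well above background on all 8 arrays, and among these 0 were higher and 6 lower, with a median of -0.42. The others entered the test only through the premature arrays, so that the filter favoured a fall. TYMS, which makes thymidylate for DNA, fell from 0.31, -0.04, -0.04 and 0.29 on the premature to -1.56, -1.03, -2.13 and -2.05 on the near-term arrays, a difference of -1.82 ± 0.27 (limma adjusted p = 0.00232). CKS2, a partner of cyclin-dependent kinases, stood at 3.40, 2.85, 2.89 and 3.06 and 1.73, 1.71, 1.86 and 1.24, a difference of -1.41 ± 0.21. The sliding clamp PCNA differed by -1.10 ± 0.19 and its binding partner KIAA0101 by -1.42 ± 0.24 (limma adjusted p = 0.00413 and 0.00381). The arrays of the groups did not overlap for these 4 genes. Between 6 and 9 genes of the list were lower when each array was left out in turn (1 was higher without near-term array 1 or 4), 4 with normexp and 0 with slide as a random block, where the 4 named genes gave adjusted p between 0.0521 and 0.0745.

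Genes of the extracellular matrix moved both ways, and more of them fell. Of 24 tested, 3 (BGN, TNC and TIMP1) were higher and 10 (THBS1, SPON1, SERPINH1, LOX, TIMP3, DCN, EMILIN2, MMP2, COL3A1 and COL1A2) lower, with a median of -1.02. All 24 were well above background on all premature arrays, but only 20 on all near-term arrays. The others entered the test only through the premature arrays, so that the filter favoured a fall. BGN, the small proteoglycan biglycan, rose from 2.75, 3.66, 3.23 and 3.05 to 5.62, 5.52, 5.54 and 4.31, a difference of 2.07 ± 0.34 (limma adjusted p = 0.00316). TNC, tenascin C, rose by 2.07 ± 0.36 and TIMP1, an inhibitor of matrix metalloproteinases, by 1.33 ± 0.26 (limma adjusted p = 0.00394 and 0.00589). Among the lower genes THBS1, thrombospondin 1, fell from 0.19, -0.01, 0.00 and 0.45 to -1.13, -4.29, -3.15 and -3.11 (limma adjusted p = 0.00529). The fibrillar collagen gene COL3A1 stood at 2.12, 2.98, 2.52 and 2.70 on the premature and at 0.08, 2.64, -0.72 and -0.22 on the near-term arrays, where array 2 reached the premature range and the others did not. Its call (limma adjusted p = 0.0356) was lost without near-term array 1, 3 or 4 or without any 1 of the premature arrays (adjusted p 0.0583 to 0.0933), and another fibrillar collagen gene, COL1A1, was not altered (limma adjusted p = 0.23). COL1A2 fell by 2.03 (limma adjusted p = 0.0365) and differed by -0.27 with normexp, while its dimmer probe, well above background on all 8 arrays, was higher by 0.61, so that its direction is unsettled, and its call was lost without near-term array 1 or 3 or any 1 of the premature arrays (adjusted p 0.0616 to 0.0907). The list had 4 lower genes without premature array 2, 5 without near-term array 3 or premature array 3 or 4, 6 without premature array 1, and 13 without near-term array 2, and with slide as a random block 0 were called either way. Segments were cleaned of connective tissue before RNA was made, and fewer cells of a type and less RNA per cell cannot be told apart in such samples.

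Genes of the glucocorticoid receptor pathway were higher or not altered. Of 21 tested, 10 were higher (CEBPB, FKBP5, GLUL, NFKBIA, CEBPD, ERRFI1, MT1A, MT2A, KLF9 and POMC) and 0 lower, with a median of 1.30. GLUL, glutamine synthetase, stood at 1.82, 1.47, 1.76 and 2.01 on the premature and at 3.37, 2.90, 3.63 and 3.47 on the near-term arrays, a difference of 1.58 ± 0.22 (limma adjusted p = 0.0018). NFKBIA, the inhibitor that keeps NF-kappaB in the cytoplasm, rose from 1.07, 1.00, 0.91 and 1.17 to 2.25, 2.48, 2.66 and 1.97, or 2.46-fold (limma adjusted p = 0.00257). The transcription factors CEBPD and KLF9 rose by 1.44 and 1.99 (limma adjusted p = 0.00381 and 0.0187), and the metallothioneins MT1A and MT2A by 1.99 and 1.68. Other genes known to respond to glucocorticoids were not altered, among them SGK1, a salt-regulating kinase, at 0.36 (limma adjusted p = 0.88), and DUSP1, a phosphatase of MAP kinases, at -0.24 (limma adjusted p = 0.7). Leaving out each array in turn gave 8 to 10 higher genes, and 1 lower gene without near-term array 2 or 4. With slide as a random block only CEBPB and FKBP5 of the list kept their calls. Of the 21 genes 5 were named without the study's table of group means, through which other probes were named, and 3 of these 5 were higher.

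Ribosomal protein genes had the largest share of higher genes of the 19 pathway lists, and this share depended on the scaling. Of 27 tested, 17 were higher (none with quantile normalization) and 3 (RPL37, RPS4X and RPL35A) lower, with a median of 0.79. RPS12, of the small subunit, stood at 7.51, 7.42, 7.63 and 7.67 on the premature and at 9.0, 8.23, 9.36 and 9.30 on the near-term arrays (limma adjusted p = 0.00546). RPL14 rose by 1.25 ± 0.19 and RPS26 by 1.25 ± 0.19, and RPL37 fell by 1.5 (limma adjusted p = 0.0023, 0.00263 and 0.00387). With quantile normalization 0 of the 27 were higher and 4 lower, with a median of 0.08, and with scaling to the median of the array 3 were higher and 2 lower. With slide as a random block or normexp none was higher. Ribosomal protein genes have many processed copies in mammalian genomes, so the probe of a gene may also catch transcripts of its copies.

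Among chaperones, 3 of 14 genes tested were higher (CRYAB, HSF1 and BAG3) and 7 lower (HSPA8, HSPA13, PDIA3, SERPINH1, DNAJA1, HSPA5 and HSP90AA1). All 14 were well above background on all premature arrays, but only 11 on all near-term arrays. The others, HSPA13 and PDIA3 among them, entered the test only through the premature arrays, so that the filter favoured a fall. CRYAB, the small heat shock protein alphaB-crystallin of muscle, rose from 3.27, 3.56, 3.79 and 3.62 to 5.50, 5.04, 5.97 and 4.62, a difference of 1.73 ± 0.30 (limma adjusted p = 0.00383). PDIA3, a disulfide isomerase of the endoplasmic reticulum, fell from -0.77, -0.75, -0.62 and -0.50 to -3.53, -3.06, -4.57 and -2.25 (limma adjusted p = 0.00296). All near-term arrays were below all premature arrays for PDIA3. HSPA13, a microsomal chaperone, fell by 2.65 and kept its call with slide as a random block (adjusted p = 0.0458), but differed by -0.06 with normexp. Its other probe, well above background on 0 near-term arrays and 1 premature array, differed by 0.16. HSPA8 kept its call too. The inducible HSPA1A and DNAJB1 were not altered. Without premature array 2, 3 or 4, 4 genes of the list were lower.

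Of 16 vasoactive genes 2 (UCN and ECE2) were higher and 5 (EDN1, NOS1, NOS3, ADM and AGTR2) lower, with a median of -0.43, which was 0.02 with normexp. Only 8 of the 16 were well above background on all 8 arrays, and of these 1 was higher and 2 were lower. The others entered the test through 1 group only, so that the filter favoured their difference. EDN1, the precursor of the constrictor endothelin 1, stood at -0.79, 0.01, -0.94 and -0.69 on the premature and at -3.51, -2.79, -3.44 and -2.78 on the near-term arrays, a fall of 5.77-fold (difference -2.53 ± 0.28, limma adjusted p = 0.000883) that kept its call with slide as a random block (adjusted p = 0.0303) and not with normexp. NOS3, the endothelial nitric oxide synthase, fell from 0.29, 0.79, -0.03 and 0.11 to -1.56, -1.24, -2.50 and -0.70 (limma adjusted p = 0.00854). NOS1, the neuronal synthase, fell by 3.05 by its brightest probe, well above background on 2 near-term and all premature arrays, but its other probe was well above background on all near-term and no premature array, so that the direction is unsettled. UCN, the vasodilator peptide urocortin, rose from -4.76, -5.53, -4.93 and -5.20 to -3.53, -2.87, -3.27 and -1.21, the highest value being that of the dim array 4, and was well above background on 2 premature arrays only. Without premature array 3 or 4, 1 vasoactive gene was higher. The receptors EDNRA, EDNRB and AGTR1 were tested and not altered.

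Of adrenergic receptors only ADRB1 is named on the array, and it was well above background on no array of either group and was not tested. In the wider list of adrenergic signalling NPY was the 1 gene altered of 5 tested, and 2 were higher without near-term array 4. Of 11 ion channel and calcium genes, 0 were higher and 3 lower, CALM2, GJA1 and GJA4. CALM2, a calmodulin gene, fell from 3.17, 3.11, 3.15 and 3.12 to 2.58, 1.99, 1.97 and 1.00 (limma adjusted p = 0.0155). The gap junction genes GJA1 and GJA4, connexins 43 and 37, differed by -0.97 and -1.25 (limma adjusted p = 0.0276 and 0.0337). The GJA1 groups overlapped, its other probes, each well above background on only some arrays, differed by -3.13, -0.13 and 1.66, and its call was lost without near-term array 1 or 3 or premature array 2, 3 or 4 (adjusted p 0.0539 to 0.082). GJA4 differed by 0.01 with normexp. The GJA4 call was lost when any 1 of the premature arrays was left out (adjusted p 0.0594 to 0.0855). Without near-term array 4, 5 genes of this list were lower, and without premature array 2, 3 or 4, 1 was. Without near-term array 1 or 4, 1 was higher.

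Of 25 genes of TGF-beta, BMP and WNT signalling 6 were higher and 6 lower, with a median of 0.04 that ran from -0.11 to 0.21 when each array was left out in turn. Of 27 angiogenesis genes 6 (22.2%) were higher and 4 (14.8%) lower, shares near those of all genes with a symbol, with a median of -0.15 that ran from -0.20 to 0.26. TGFB1, a growth factor that promotes matrix and contractile genes in smooth muscle, rose from -0.58, -0.90, -1.06 and -0.88 to 1.47, 0.72, 1.33 and 0.29, a difference of 1.81 ± 0.28 (limma adjusted p = 0.00271). Its receptor subunit TGFBR1 rose by 1.11 ± 0.25 (limma adjusted p = 0.0109). INHA, the alpha subunit of inhibin, rose from -3.70, -4.35, -4.01 and -3.74 to -1.94, -2.36, -1.76 and -1.70 and kept its call with slide as a random block (adjusted p = 0.0311) but not with normexp, as did the fall of BMP6. PDGFRB, the platelet-derived growth factor receptor of mural cells, rose by 1.17 ± 0.24, and CXCR4, a chemokine receptor of sprouting endothelium, fell by 2.08 (limma adjusted p = 0.00696 and 0.00443). CXCR4 differed by -0.08 with normexp. VEGFA and its receptor KDR were tested and not altered. With quantile normalization PDGFRB lost its call. Without premature array 2 only 1 gene of the TGF-beta list was lower, without near-term array 1 or premature array 1, 3 or 4 there were 2, and without near-term array 3 there were 3. Without premature array 2, 3 or 4 only 3 angiogenesis genes were higher, and without premature array 4 only 2 were lower.

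In the insulin-like growth factor system 3 of 14 genes were higher and 2 lower, and 1 was lower without near-term array 1, 2 or 3 or premature array 1, 2 or 4. INSR, the insulin receptor, rose from -4.63, -5.12, -4.74 and -4.95 to -3.55, -2.63, -2.86 and -2.57, a difference of 1.96 ± 0.25 (limma adjusted p = 0.0014; 0.0341 with slide as a random block), a call lost with normexp. IGF1R, the type 1 receptor, rose by 1.36 ± 0.34 and the binding protein IGFBP5 by 1.35 ± 0.23 (limma adjusted p = 0.0167 and 0.00368). The IGF1R call was lost without premature array 3 or 4 (adjusted p 0.0552 and 0.0508). The fetal growth factor IGF2 differed by -1.19 and was not altered (limma adjusted p = 0.115). IGF2R, which clears IGF2, fell by 1.63 by its brightest probe (limma adjusted p = 0.00281), while of its other probes 1 differed by -1.80 and 1 was well above background on 3 near-term and no premature array. The IGF2R call was lost with quantile normalization and with normexp, where the difference was -0.005.

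Among genes of energy use, 4 of 20 in glycolysis and hypoxia were higher and 1 lower (2 without near-term array 4). ALDOA, the muscle aldolase, rose from 3.72, 3.65, 3.89 and 3.77 to 5.59, 4.77, 5.48 and 4.98, a difference of 1.45 ± 0.22, and PFKL, a phosphofructokinase, by 1.06 ± 0.18 (limma adjusted p = 0.00269 and 0.00381). EGLN3, a prolyl hydroxylase that marks hypoxia-inducible factor for breakdown, rose from -2.97, -3.78, -3.67 and -3.40 to -1.43, -1.81, -0.99 and -1.59 (limma adjusted p = 0.00128; 0.0441 with slide as a random block, lost with normexp). The factor itself, HIF1A, and its target SLC2A1 were not altered. Of 13 genes of oxidative phosphorylation 2 were higher (NDUFV2 and COX7A1, by 1.32 and 1.03) and 1 (COX17) lower. The COX7A1 call was lost without premature array 1, 2 or 4 (adjusted p 0.0517 to 0.0695) and that of COX17 without near-term array 3 or any 1 of the premature arrays (adjusted p 0.0524 to 0.076), and without near-term array 4, 5 genes of this list were higher. Of 19 lipid genes 2 were higher (4 without premature array 1) and 2 lower. PPARA, the fatty acid sensing receptor, rose from -4.85, -4.77, -5.06 and -5.36 to -3.61, -2.77, -2.97 and -2.22 and INSIG1, which restrains cholesterol synthesis, fell from -1.57, -1.39, -1.30 and -1.56 to -3.35, -3.07, -3.99 and -5.02 (limma adjusted p = 0.00198 and 0.00321), and both kept their calls with slide as a random block and lost them with normexp. PPARA was well above background on 3 premature and INSIG1 on 2 near-term arrays, so that the filter favoured both differences. INSIG1 differed by -0.17 with normexp. ACSS2, an acetyl-CoA synthetase, rose by 1.94 (limma adjusted p = 0.00691).

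Of 20 antioxidant and metal-binding genes 6 were higher (GPX1, MT3, MT1A, TXNIP, MT2A and GSTP1) and 3 lower (FTL, NFE2L2 and TF). GPX1, glutathione peroxidase, rose from 3.39, 3.18, 3.04 and 3.29 to 4.61, 4.27, 4.87 and 4.29, a difference of 1.29 ± 0.20 (limma adjusted p = 0.0027). MT3, a metallothionein, rose from 1.38, 1.29, 1.51 and 1.73 to 3.04, 2.74, 3.85 and 4.28 (limma adjusted p = 0.00364). FTL, the ferritin light chain, had a small spread in both groups, at 4.74, 4.68, 4.73 and 4.74 on the premature and 3.97, 3.94, 3.83 and 3.92 on the near-term arrays, and fell by 0.81 ± 0.15 (limma adjusted p = 0.00508). Without near-term array 4, 5 genes of the list were lower.

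Of 24 immediate early genes, which answer stimulation within minutes, 4 were higher (EGR1, JUND, IER3 and JUNB) and 1 (FOS) lower. EGR1 stood at -2.86, -2.85, -2.92 and -2.85 on the premature and at -2.26, -1.82, -1.80 and -0.86 on the near-term arrays (limma adjusted p = 0.0147), and JUND at 5.12, 4.50, 4.44 and 4.63 and 5.73, 5.28, 6.65 and 6.44 (limma adjusted p = 0.0148). JUND lost its call with quantile normalization, IER3 lost it without premature array 1, 3 or 4 (adjusted p 0.0503 to 0.0526) and JUNB without premature array 1, 2 or 3 (adjusted p 0.0505 to 0.0757). The brightest JUNB probe differed by 1.23 and its other probes by 0.70 and -0.72, all well above background on all 8 arrays, so that 1 of its 3 probes goes the other way. Without premature array 1 or 3 only 2 genes of the list were higher. The FOS call was lost when near-term array 1 or 3 or any 1 of the premature arrays was left out, and 2 genes of the list were lower without near-term array 2 or 4. Of 20 genes of interferon response and antigen presentation 3 were higher and 3 lower. IFI35, an interferon-induced protein, rose by 1.70 ± 0.25, and PSME1, a proteasome activator, by 0.92 ± 0.24 (limma adjusted p = 0.0021 and 0.0189). The PSME1 call was lost with quantile normalization and without premature array 2 or 3 (adjusted p 0.0616 and 0.0583), where only 1 gene of the list was higher. PARP9 and IRF8 were lower by their brightest probes but higher by 0.22 and 0.61 with normexp. Of 9 cytokines CXCL1, a neutrophil chemoattractant, was higher (1.22 ± 0.33, limma adjusted p = 0.0216) and EBI3, a subunit of interleukin 27, lower, although with normexp EBI3 was higher by 0.26. The CXCL1 call was lost with quantile normalization, without near-term array 3 and without premature array 2, 3 or 4 (adjusted p 0.0505 to 0.0633). Without near-term array 4, 3 cytokine genes were lower, and without near-term array 2 there were 2.

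**Figure D3:**
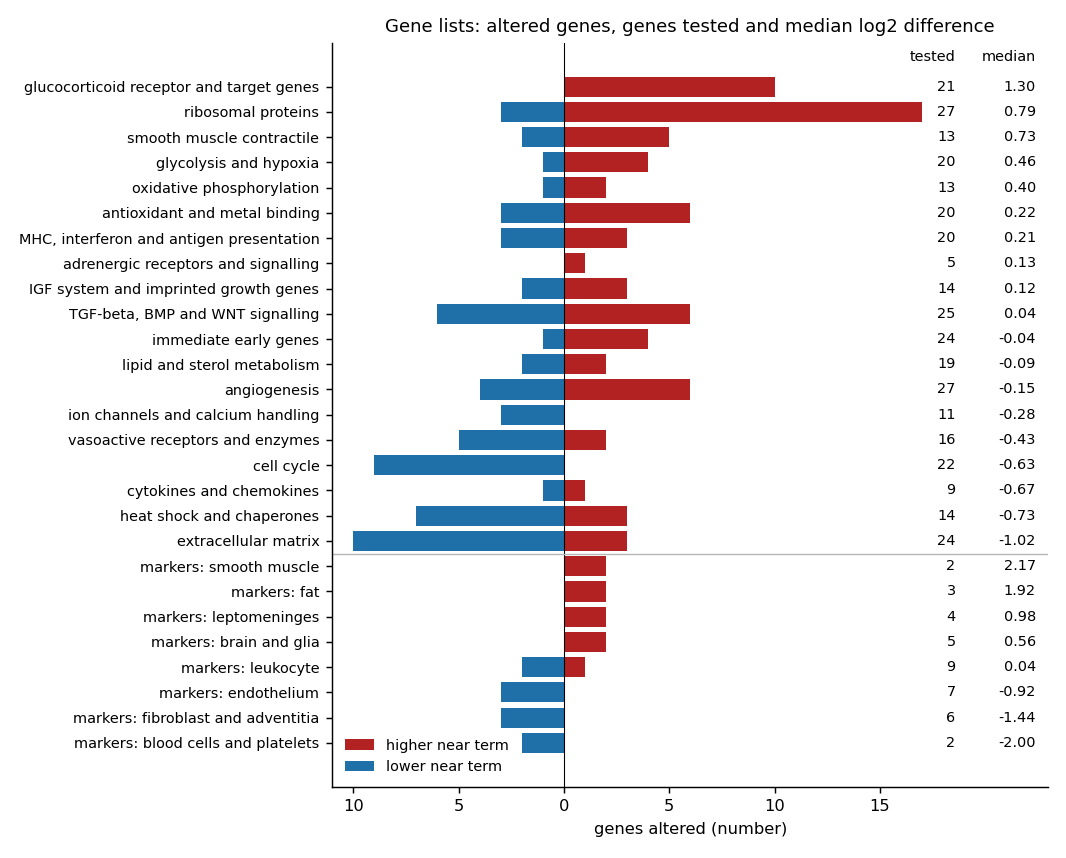
Number of genes altered in each gene list (horizontal axis), with those higher in the near-term fetus to the right in red and those lower to the left in blue; the columns give the genes tested and the median log2 difference of the list. Pathway lists stand above the grey line and marker lists below it, and ribosomal protein genes (17 of 27 higher, 0 with quantile normalization) have the longest bar.

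The genes that the study names as regulators of the PHE response were examined in the untreated artery. IKBKB, the kinase that releases NF-kappaB, rose from -1.34, -1.37, -1.56 and -1.47 to 0.10, -0.12, 0.30 and -0.39, a difference of 1.41 ± 0.20 (limma adjusted p = 0.00188; 0.0448 with slide as a random block). The IKBKB call was lost with normexp, at a difference of 1.24 (limma adjusted p = 0.055), and as the mean of its probes. Its lowest difference over the 25 settings was 1.15. NFKBIA and EGR1 were higher, as given above. FOXO1, a transcription factor restrained by insulin signalling, differed by 0.36, the prostaglandin synthase PTGS2 by -0.07, the platelet and endothelial adhesion gene SELP by -0.74 and the transcription factor KLF4 by -0.72, and none of these passed the threshold (limma adjusted p = 0.349, 0.798, 0.113 and 0.12). The PTGS2 difference was 0.62 with normexp, 0.02 with array weights and 0.04 without premature array 1. TNF was well above background on 3 near-term and 1 premature arrays and IL6 on 1 and 0, so neither was tested.

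Several genes were well above background on all 4 near-term arrays and on no premature array, and for these only a lower bound of the fold can be given, the near-term mean against the mean of the higher of the probe's own level and the lowest level well above background on each premature array. TRPV6, an epithelial calcium channel, was at least 12.9-fold higher in the near-term fetus, with levels of -2.99, -1.47, -2.08 and 0.75 on its 4 arrays. The bound was 7.1-fold for SLC9A3R1, a scaffold of membrane transporters, 7.06-fold for BATF3, a transcription factor of dendritic cells, 7.04-fold for PPY, the pancreatic polypeptide, and 6.6-fold for COL4A3, a basement membrane collagen chain. The limma adjusted p lay between 0.00055 and 0.00277, but these genes entered the test only through the near-term arrays, where they are high, so that the filter favoured a rise. None of the 5 was called with normexp. In each of the 5 the dim near-term array 4 was the highest, and without it the bounds were 7.76-fold for TRPV6, 5.35-fold for SLC9A3R1, 5.53-fold for BATF3, 5.45-fold for PPY and 3.93-fold for COL4A3. None of the 5 was well above background on a newborn array, and BATF3 and COL4A3 on no adult array. The part of array brightness in these values was not tested.

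Markers of other cells that the segments could hold were altered as well. Of 10 endothelial markers named on the array 3 were well above background on no premature array, while each of the 10 was on at least 1 near-term array. Of the 7 tested 0 were higher and 3 (NOS3, TIE1 and THBD) lower, and their summed linear level was 2.36 to 4.00 on near-term and 4.80 to 7.23 on premature arrays. Only 4 of the 7 were well above background on all near-term arrays. The others entered the test only through the premature arrays, so that the filter favoured a fall. TIE1, an endothelial receptor, was higher by 0.52 with normexp, and its call was lost without premature array 4 (adjusted p = 0.0582), where only 1 endothelial marker was lower. THBD, the thrombin receptor thrombomodulin, fell from 1.15, 1.71, 0.65 and 1.06 to 0.05, 0.58, 0.36 and -0.10 (limma adjusted p = 0.0276), a call lost without near-term array 1 or premature array 1, 2 or 4 (adjusted p 0.0616 to 0.0789). Of 6 fibroblast markers 0 were higher and 3 (DCN, COL3A1 and COL1A2) lower, with summed levels of 21.8 to 86.3 on near-term and 95.5 to 103 on premature arrays. The direction of COL1A2 is unsettled, as given above, since its dimmer probe was higher by 0.61. DCN, the proteoglycan decorin, stood at 6.52, 6.34, 6.47 and 6.33 and 4.12, 6.08, 4.32 and 5.20, a call lost without near-term array 3 or any 1 of the premature arrays (adjusted p 0.0545 to 0.0617). Without those arrays 0 fibroblast markers were lower, without near-term array 1 there was 1, and without near-term array 2 there were 5. Both globin genes tested, HBB by its brightest probe and HBA1, were lower, though the HBA1 groups overlapped, with summed levels of 12.6 to 23.5 against 27.7 to 50.9. The dimmer HBB probe, well above background on all arrays of both groups, was higher by 0.24.

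Both smooth muscle markers, CNN1 and MYLK, were higher, with summed levels of 180 to 587 against 45.4 to 65.2. Of 9 leukocyte markers 1 (TYROBP, a signalling adaptor of myeloid cells) was higher (2 without near-term array 4) and 2 (CD247 and CD68) lower, with summed levels of 5.95 to 9.79 against 5.37 to 5.90. CD247 and CD68 were higher by 0.27 each with normexp, and the CD68 call was lost without near-term array 1 or 3 or any 1 of the premature arrays (adjusted p 0.0632 to 0.0851). Of 3 fat markers 2 were higher, FABP4, a fatty acid binding protein of fat cells and microvessels, and GPD1. FABP4 stood at -7.25, -5.68, -4.91 and -5.21 on the premature, where 1 array was well above background, and at -1.63, -0.99, -2.87 and -1.38 on the near-term arrays, and it entered the test only through the latter. The GPD1 groups overlapped, and its call was lost without near-term array 3 or premature array 2, 3 or 4 (adjusted p 0.0503 to 0.0631). Of 5 brain markers 2 (STMN2 and S100B) were higher and of 4 leptomeningeal markers 2 (PTGDS and TTR), and none of either list was lower. STMN2, a protein of growing neurites, rose from -1.07, -0.96, -0.72 and -0.35 to 1.35, 0.30, 1.67 and 0.87, and S100B, a glial calcium-binding protein, from -1.20, -1.41, -1.23 and -1.19 to 0.24, -0.36, -0.49 and 1.30 (limma adjusted p = 0.00391 and 0.0193), the call of S100B being lost without premature array 2 or 3 (adjusted p 0.0582 and 0.0521). GFAP, a defining gene of astrocytes, was not altered. PTGDS, the prostaglandin D synthase abundant in leptomeninges, stood at 5.91, 5.64, 5.90 and 5.64 on the premature and at 7.69, 7.10, 7.78 and 7.46 on the near-term arrays, a difference of 1.74 ± 0.20 (limma adjusted p = 0.001; 0.0337 with slide as a random block). The groups overlapped for TTR, transthyretin, whose call was lost without near-term array 2 or 3 or premature array 1, 3 or 4 (adjusted p 0.0531 to 0.0995). The summed brain markers were 11.4 to 18.0 on near-term and 6.99 to 11 on premature arrays, the summed leptomeningeal markers 166 to 259 and 71.1 to 110, and the summed fat markers 0.55 to 2.18 and 0.16 to 0.25. The part of these cells in the results above was not tested.

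The other untreated ages were set beside the comparison, each scanned on the day of 1 of the fetal groups. The newborn comparison shares the premature arrays and the adult comparison the near-term arrays, so their values are given side by side only. Of 9556 genes and unnamed probes, 2157 (22.6%) were altered between newborn and premature, 12.2% higher and 10.4% lower in the newborn, and of 9381, 2640 (28.1%) between adult and near-term, 12.4% higher and 15.8% lower in the adult. FKBP5, CNN1, CEBPB, SLC2A4 and SPHK1 were higher in the newborn than in the premature artery too, by 3.97, 1.85, 1.72, 2.56 and 1.80 (limma adjusted p = 6.97e-06, 0.000137, 8.21e-05, 0.000413 and 9.43e-05). For these 5 genes the newborn and the adult lay on the near-term side of the premature level. Newborn minus premature was -2.54 for HBB, which was well above background on no adult array.

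Another set of genes had like levels at the ages scanned on the same day. SAT1 stood at 0.74 ± 0.43 in the premature and 1.28 ± 0.37 in the newborn artery and at -2.25 ± 0.62 in the near-term and -3.18 ± 0.74 in the adult artery (SD, n = 4 each). SPCS1 stood at 1.97 ± 0.15 and 2.34 ± 0.06 against -0.54 ± 0.40 and -0.66 ± 0.45, and PRKACA at -2.04 ± 0.20 and -1.89 ± 0.24 against 0.96 ± 0.46 and 0.74 ± 0.38. GALNT7, INHA, EGLN3 and RPL37 had the same order. In these 7 genes neither the newborn against the premature nor the adult against the near-term artery passed the test and the fold threshold together. The scan day moves with these levels.

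A further set was highest in the near-term artery. BGN stood at 5.25 ± 0.62 near term against 3.17 ± 0.38, 3.18 ± 0.41 and 4.11 ± 0.19 in the premature, newborn and adult artery, and RPL14 at 7.40 ± 0.26 against 6.15 ± 0.07, 6.07 ± 0.16 and 6.53 ± 0.28. NPY, MT3 and STMN2 were highest near term too, and in all 5 the adult was lower than the near-term artery (limma adjusted p between 0.00137 and 0.0285). In the newborn against the premature artery 11 of 21 glucocorticoid genes were higher and 2 lower, 1 of 22 cell cycle genes was higher and 11 lower, 9 of 13 genes of the contractile list were higher and 0 lower, 3 of 24 matrix genes were higher and 7 lower, and 1 of 27 ribosomal protein genes was higher and 1 lower. Of 15 chaperone genes 9 were higher and 0 lower in the newborn, the other way from the near-term fetus. HSPA8 was higher by 0.88 in the newborn than in the premature artery (limma adjusted p = 0.00172). It was also higher by 1.86 in the adult than in the near-term artery (limma adjusted p = 0.0153).

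**Figure D4:**
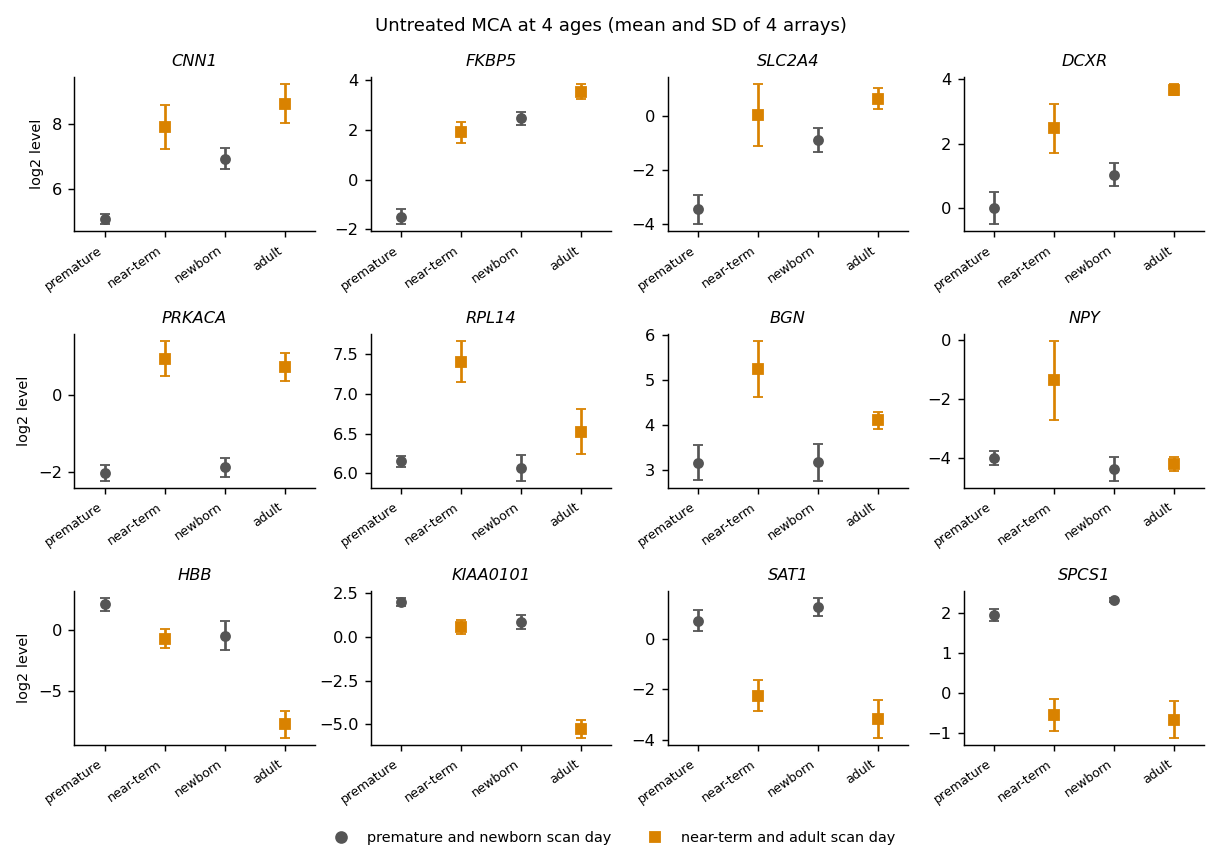
Levels (log2 of intensity over the 75th percentile, mean and SD of 4 arrays) of 12 genes in untreated artery of the premature fetus, near-term fetus, newborn lamb and adult sheep; grey circles were scanned on one day and orange squares on the other. FKBP5 and CNN1 lie above the premature level at all later ages, SAT1, SPCS1 and PRKACA are closer at ages scanned together than at the others, and BGN, RPL14 and NPY peak in the near-term fetus. HBB was well above background on no adult array.

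The same ages were also compared after PHE, on 8 arrays that hold none of the untreated RNA. Of 10131 genes and unnamed probes 3887 (38.4%) were altered between near-term and premature PHE-treated arteries, 20.1% higher and 18.2% lower. Of the 3190 genes altered in the untreated artery and tested with PHE, 1992 (62.4%) were altered the same way, which is 55.8% of those altered with PHE and tested in the untreated artery, 16 were altered the opposite way, and 3016 (94.5%) had the same sign, where 78.3% of all genes tested in both did. The labels do not say whether the untreated and PHE-treated segments came from the same animals. With PHE the age difference was -2.98 for SAT1, -3.25 for SPCS1, 2.40 for CNN1 and 2.54 for ACTN1 (limma adjusted p between 0.00012 and 0.00116). Of the genes with the 10 largest rises 8, and of the 8 with the largest falls given above 5, were altered the same way with PHE. CEBPB, at 0.61, NPY, at 0.88, HSPA8, at -0.98, BMP6, at -0.62, and LOX, at -0.72, did not pass the test with PHE (limma adjusted p between 0.135 and 0.423). With PHE 9 of 22 cell cycle genes were lower and 3 higher. The ribosomal list was altered in 0 genes up and 4 down, and the glucocorticoid list in 2 up and 3 down. In the matrix list 10 of 27 genes were higher and 2 lower with PHE.

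The age difference itself differed between the arrays without and with PHE, by an interaction term over the 16 fetal arrays, for 117 of 9392 genes tested in both. Of the named genes altered in the untreated artery, 98 could be compared and 12 passed. FKBP5 was higher near term by 3.41 without and by 1.13 with PHE, CEBPB by 2.67 and 0.61, and GLUL by 1.58 and 0.42 (limma adjusted p of the interaction = 0.00889, 0.0306 and 0.043). CEBPB stood at -2.17 ± 0.24 without and 2.83 ± 0.28 with PHE in the premature and at 0.50 ± 0.18 and 3.44 ± 0.74 in the near-term artery (SD, n = 4 each). NFKBIA, CXCL1, MT1A and UCN were higher near term without PHE, at 1.30, 1.22, 1.99 and 2.38, and with PHE the differences were -0.89, -1.81, -1.74 and -2.29, of which those of CXCL1, MT1A and UCN passed the threshold as lower. IGF2R and TIE1 were lower near term without PHE, at -1.63 and -1.18, and higher with PHE, at 1.28 and 1.09 (limma adjusted p with PHE = 0.0409 and 0.033). EGR1 and PDGFRB had larger age differences with PHE, 3.41 and 3.19. The 4 near-term PHE arrays lay together on the slide that also holds untreated near-term array 4, and the part of slide in these differences was not tested.

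**Figure D5:**
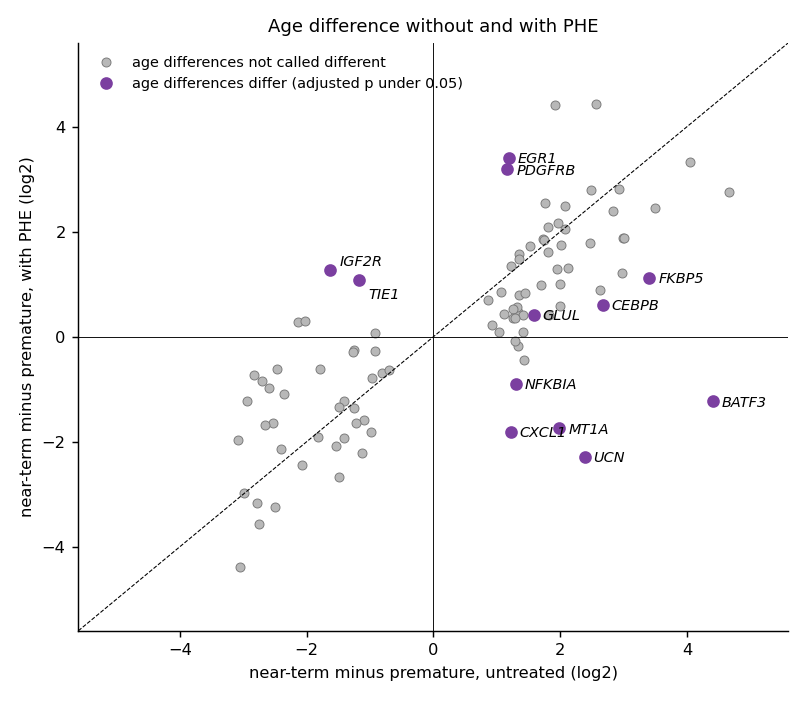
Difference between near-term and premature fetus without PHE (horizontal axis, log2) and with PHE (vertical axis, log2) for the 98 named genes altered in the untreated artery and tested with PHE; the dashed line marks equal differences. Purple points are the 12 genes whose age difference differed without and with PHE (interaction, adjusted p under 0.05), among which FKBP5, CEBPB and GLUL lie below the line and EGR1 and PDGFRB above it.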

How the data were processed

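Total RNA of MCA segments was amplified from its poly(A) tails, labelled with Cy3 and hybridised to 1-colour sheep arrays, by a commercial service that the authors used, and the intensity of each spot was read with Feature Extraction 9.5.3.1, which subtracts background and flags spots that are well above it. The deposited intensity values are these processed signals, and no normalization between arrays had been applied. The signals were divided by the 75th percentile of each array's 15008 probes and put on the log2 scale. Control spots and outlier spots were left out, the spots of a probe were averaged, and the brightest probe stood for a gene. The precision is limited by the 4 arrays of each group.

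Near-term and premature untreated arrays were fitted alone with limma 3.58.1 in R 4.3.3 (lmFit and eBayes, two-sided, Benjamini-Hochberg adjustment over all genes and unnamed probes tested). Scripts in Python 3.11.15 read the files and drew the plots, and the test was tried on simulated data first. The labels do not tie arrays to animals, so p-values measure only the spread between these arrays, which may be technical. Alternatives were the methods' t-test (Welch), normexp, quantile and median scaling, other filters and floors, the mean of the probes of a gene, all 32 arrays in 1 fit, array weights, slide as a random block, the replicate number as a block, the deposited value table and leaving out each array. The interaction of age with PHE, and the fits of the other comparisons without the dimmest near-term array of each, were chosen after seeing the data.

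The files name few sheep genes. Of the 15008 probes 3055 have a symbol, 759 from the files, 520 from the reference table by accession, 135 by gene identifier, and 1641 by matching the near-term, newborn or adult group means of a supplementary table of the study, of which only the names were used. Since that table lists only genes altered by PHE, the named genes are not a random draw. Of 183 matched probes that also had another name, 167 had the same. The study's own comparisons (fold changes and p-values) were not used, and 0 value columns belonged to no sample.

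The members, the gene lists and the tests were chosen with earlier results of these data known. Genes named in the text are the 10 largest rises and falls among called genes well above background on all 8 arrays with groups that do not overlap, up to 4 called members of each list by smallest adjusted p, the 5 largest lower bounds of the fold, and the regulators that the study names. Some genes chosen by this rule are not reported here. Other genes named were chosen after their values were seen.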

Additional observations from a re-analysis of the deposited data

Results flagged for a closer look

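Among the 103 named genes tested, 8 of 206 groups of 4 arrays held an array whose gap to its nearest neighbour, as a share of the range of the group, was above Dixon's critical value for 4 samples, where chance gives about 1 in 20. In the premature group the share was 0.926 for SLC2A4, 0.969 for GJA1, 0.839 for GJA4, 0.849 for EGR1, 0.893 for IFI35 and 0.841 for S100B. In the near-term group it was 0.924 for BGN, where array 4 was the lowest, and 0.923 for MYLK, where array 3 was the highest.

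The age difference without PHE minus that with PHE, on the log2 scale, passed the limma interaction test for 12 named genes. It was 2.28 for FKBP5, 2.06 for CEBPB, 1.16 for GLUL, 2.19 for NFKBIA, 4.67 for UCN, 3.03 for CXCL1, 3.73 for MT1A and 5.64 for BATF3, where the near-term artery was higher relative to the premature one without PHE. It was -2.91 for IGF2R, -2.02 for PDGFRB, -2.23 for EGR1 and -2.26 for TIE1, where the difference lay the other way. The limma adjusted p of the interaction ran from 0.00889 for FKBP5 to 0.043 for GLUL and EGR1. UCN, MT1A, BATF3, IGF2R and TIE1 were not well above background on every untreated array. BATF3 was well above background on no premature untreated array, so its value rests there on a level that was not measured above background. The part of slide in these values was not tested.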

How the results depend on the processing

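Of 9535 genes tested, 3247 were altered (1709 higher and 1538 lower in the near-term fetus), and 0 were called in the opposite direction under any alternative. The count was 420 (202 and 218) with slide as a random block, 410 (222 and 188) with normexp and 1372 (782 and 590) with the methods' t-test (Welch) after Benjamini-Hochberg adjustment, against 3158 at its unadjusted p. Scaling to the median gave 1930 with 840 higher, probes well above background on all 8 arrays 1013 lower, and array weights 2650 lower. Leaving out each array gave 1992 to 4042 altered, 1045 to 2030 higher and 943 to 2012 lower genes. The 146 altered genes of the pathway and marker lists became 15 with slide, 27 with normexp, 58 with Welch's test after adjustment, and 73 with names independent of the supplementary table. Of the 99 named genes called, 73 lost their call with slide, 64 with normexp, 44 with Welch's test after adjustment and 22 with scaling to the median. The cause was not tested.

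The share of altered genes that were higher was 52.6%, 42.3% with quantile normalization, 43.5% with scaling to the median and 65.2% without a filter on dim probes. The median of all genes moved to -0.18 with quantile normalization and 0.29 with normexp. Differences that changed sign were, with normexp, CALD1 at 0.20, GJA4 at 0.0077, EBI3 at 0.26, PARP9 at 0.22, IRF8 at 0.61, TIE1 at 0.52, CD247 and CD68 at 0.27 and PTGS2 at 0.62. With the mean of the probes they were NOS1 at 0.36, IRF8 at 0.22 and PTGS2 at 1.11, each with a probe well above background on no premature array, and PTGS2 was at 0.025 with array weights and from -0.20 to 0.041 when 1 array was left out.

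For arrays with the same replicate number the deviations from the group means correlated at 0.09, 0.36, -0.07 and 0.04, so that whether they pair is unsettled. With the replicate number as a block 2741 genes were altered, 1390 higher and 1351 lower, and replicates 1, 2 and 4 correlated best with their own number while replicate 3 did not. In settings chosen after seeing the data, 4586 genes were altered for the same ages with PHE without near-term PHE array 1, and 2625 for adult against near-term, same scan day, without near-term array 4. Near-term arrays 3 and 4, at 4.37 and 1.43 times the background at the 75th percentile, limit what can be measured of dim genes.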
